A study of Mus musculus with 6 samples.

Results

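The 7 mouse cyclin-dependent kinase inhibitor genes, Cdkn1a, Cdkn1b, Cdkn1c, Cdkn2a, Cdkn2b, Cdkn2c and Cdkn2d, were read by their gene numbers from a table of read counts that holds 27179 genes. All 7 were in the table, and 6 had enough counts to be among the 11740 genes tested. The cells came from spleens of gBT-I mice, kept specific-pathogen-free, which carry a transgenic T cell receptor on CD8+ T cells for a glycoprotein B peptide of herpes simplex virus. Whole splenocyte cultures were stimulated with that peptide (gB498-505) and lipopolysaccharide (LPS), received IL-2 on days 2 to 5, and were collected on day 6. The 3 control libraries had no further treatment, and the 3 butyrate libraries came from cultures given butyrate from day 3 on. Butyrate is a short-chain fatty acid made by gut bacteria and an inhibitor of histone deacetylases. All 6 libraries thus share the transgene, the peptide, LPS and IL-2, and no unstimulated or pre-treatment sample was analysed here. The sources used here give no dose of butyrate, no age of the mice and no sorting of the cells. The labels do not say whether replicates are separate mice, cultures or days, so p-values measure the spread between these libraries, which may be technical.

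Cyclin-dependent kinases drive the cell cycle when bound to a cyclin, and the inhibitors hold them back. The CIP/KIP inhibitors (p21 from Cdkn1a, p27 from Cdkn1b, p57 from Cdkn1c) bind complexes of several kinases, above all those of CDK2 with cyclin E or A, and can also help cyclin D complexes to assemble. The INK4 inhibitors (p16 from Cdkn2a, p15 from Cdkn2b, p18 from Cdkn2c, p19 from Cdkn2d) bind CDK4 and CDK6 alone and keep cyclin D off them. In T cells p27 and p18 are known as brakes that restrain entry into division, p27 being removed on activation mainly as protein, while p21 is the classic target of p53 and is induced by histone deacetylase inhibitors in many cell types.

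Libraries held 5383380 to 6244350 counts. Levels are given as CPM, which is a gene's count over its library's counts in the genes tested, on a common scale. They were adjusted between libraries by edgeR's TMM factors, which ran from 0.9886 to 1.008. A library with 0 counts of a gene allows up to 3 counts, or 0.48 to 0.557 CPM of the full library total without those factors. The summed level of 7 T cell and CD8 markers was 3678 to 4218 CPM in control and 3472 to 4503 CPM with butyrate, and Cd3e was called lower. With the replicate number as a block, a fit described with Cdkn1a below, Cd3g (log2 fold change -0.86, edgeR adjusted p = 0.000866) and Cd2 (-0.63, 0.00166) were also lower and Trac was higher (0.30, 0.0287). Markers of most other cells were sparse, and some were called. Their counts stand beside 23.5% higher and 22.5% lower of all 11740 genes tested, or 27.4% and 26.4% with the block. The summed CPM went from 75.3–84.4 to 128–139 for 5 CD4 T cell markers (3 higher of 4 tested) and from 24.1–79.2 to 86.5–98.5 for 10 macrophage and dendritic cell markers (1 higher of 5 tested). It went from 6.48–9.41 to 17–22.5 for 6 NK cell markers (2 of 3), from 9.09–18.5 to 26.3–46.9 for 8 granulocyte and mast cell markers (3 of 4), and from 1.48–7.46 to 9.11–79.1 for 7 erythroid and platelet markers (2 of 3). Single genes weighed heavily in some of these sums. Zbtb7b was most of the CD4 sum, with means of 69.8 and 117 CPM, and Cd4 itself had means of 0.608 and 4.63 CPM. In the macrophage and dendritic cell list Itgam rose from 4.08 to 44.1 CPM. Of the others in that list 4 were not called and 5 had too few counts for the test. In the granulocyte and mast cell list Kit, Siglecf and Cxcr2 were higher and Cpa3 was not called. S100a8, S100a9, Mpo and Elane had too few counts for the test. The top of the erythroid and platelet range was butyrate replicate 3. There Hbb-b1 was at 31.4 and Ppbp at 29.6 CPM, against 2.96 and 4.07 CPM in butyrate replicate 1 and 1.89 and 1.55 CPM in butyrate replicate 2. The 9 B and plasma cell markers summed to 457–777 CPM in control and 183–478 CPM with butyrate, of which 2 of the 4 tested were higher. Ighm, the largest part of that sum, was not called (adjusted p = 0.0955) but was lower with the block (-0.96, adjusted p = 0.00169). The block also called Cd40lg of the CD4 list lower and Ppbp of the platelet list higher. Pax5 was at 0 in every library, and Klra8, Mpo and Elane were at 0 in control. The part of such cells in the values below was not tested, and in bulk RNA fewer cells of a type and less RNA per cell cannot be told apart.

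With butyrate, inhibitor genes moved in opposite directions. Cdkn1a was higher, Cdkn1b, Cdkn2c and Cdkn2d were lower, Cdkn2a and Cdkn2b were not called, and Cdkn1c had too few counts for the test. By edgeR's quasi-likelihood test with Benjamini-Hochberg adjustment over all genes (adjusted p under 0.05), 1 of the 6 tested inhibitors was higher and 3 were lower. Treatment moved a large part of the transcriptome, so these counts stand against a high background. Of all genes tested, 45.9% were called, 23.5% higher and 22.5% lower, with a median log2 fold change of 0.00. Genes called higher were 51.1% of all calls. Under upper quartile scaling, which moved the median of all genes by 0.09, they were 61.8%. With 6 genes, 4 calls beside a background of 45.9% say little about the family as such. At least 2-fold lower were 2 of 6 inhibitors, Cdkn1b and Cdkn2c, beside 3.33% of all genes. At least 2-fold higher was 1 of 6, Cdkn1a, beside 10.6%. The library ranges of the 2 groups did not overlap for 4 of the 6 tested inhibitors, nor for Cdkn1c, beside 57.1% of all genes tested.

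**Figure D1:**
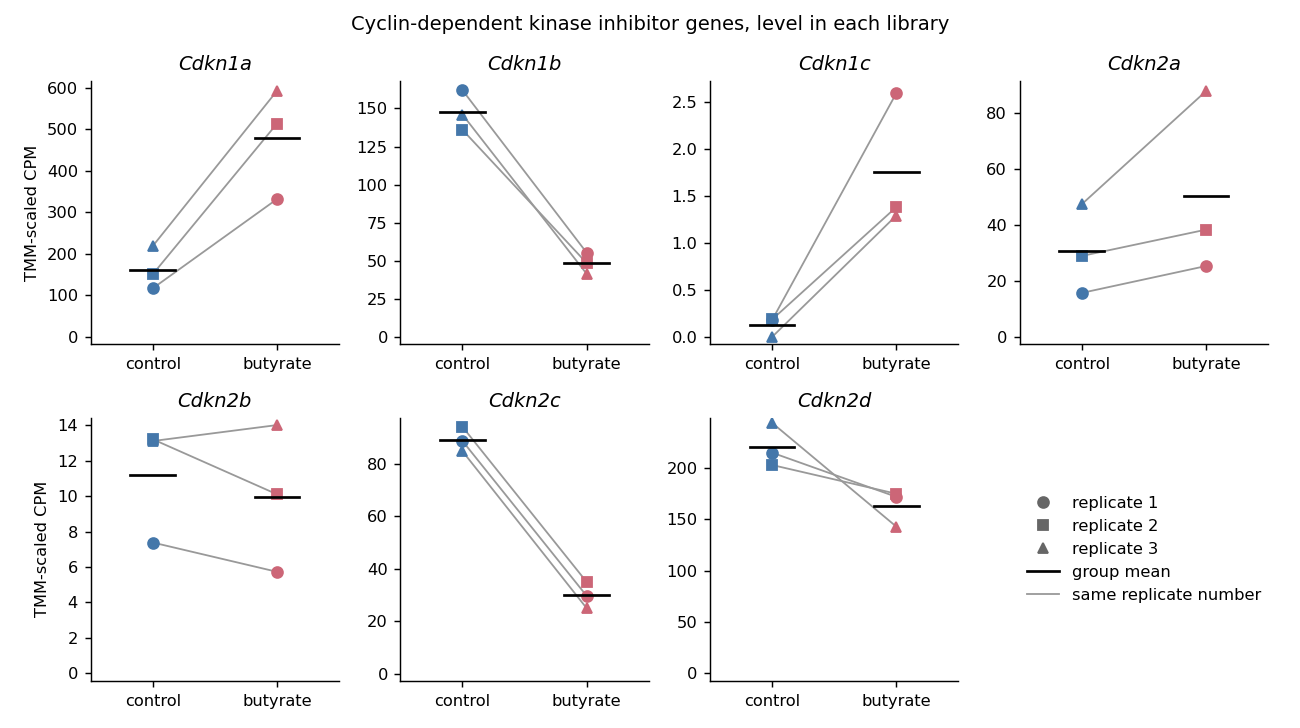
Level of each inhibitor gene in each library as TMM-scaled CPM on a linear axis from 0 (points; circle, square and triangle are replicates 1, 2 and 3, grey lines join libraries of the same number, black bars are group means). All 3 butyrate libraries sit above all 3 control libraries for Cdkn1a and Cdkn1c and below them for Cdkn1b, Cdkn2c and Cdkn2d, while the groups overlap for Cdkn2a and Cdkn2b.

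Among the CIP/KIP genes, Cdkn1a (gene 12575, chr17:29090979-29100722, plus strand, build GRCm38.p6, the assembly behind mm10) is the source of p21. RefSeq gives it 2 starts, and the 250 bases before each start are printed here because they differ in the letters they hold. Capitals mark matches to a full p53 site in the first and the GC box GGGCGG, a letter pattern that Sp1-family factors can bind, in the second. Promoter windows of 300 bases (250 before and 50 after the start) matched 6 of the 7 members, Cdkn1c being the exception, and gave 9 windows in all.
Cdkn1a, start 1, chr17:29090729-29090978, plus strand: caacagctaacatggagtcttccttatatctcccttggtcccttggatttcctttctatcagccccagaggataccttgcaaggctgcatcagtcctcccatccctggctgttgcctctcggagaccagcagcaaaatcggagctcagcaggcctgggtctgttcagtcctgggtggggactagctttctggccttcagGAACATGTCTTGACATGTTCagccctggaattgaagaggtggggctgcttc
Cdkn1a, start 2, chr17:29093519-29093768, plus strand: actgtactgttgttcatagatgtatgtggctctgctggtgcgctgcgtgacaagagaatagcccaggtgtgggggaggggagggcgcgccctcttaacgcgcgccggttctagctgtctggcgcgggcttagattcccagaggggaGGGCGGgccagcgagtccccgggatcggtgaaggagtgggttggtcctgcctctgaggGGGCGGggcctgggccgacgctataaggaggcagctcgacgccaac
The capitals of the first start lie 51 bases before it and differ from a full p53 site at 1 position. With at most 1 mismatch, on both strands, such a match was in 29 of 32851 promoter windows of RefSeq (0.0883%), a search that was added after the sequences had been seen. The second start has 2 copies of GGGCGG. On both strands GGGCGG was in 35.7% of all windows, and 2 or more copies in 19.5%. These are matches of letters and not measured binding.

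Cdkn1a stood at 117, 151 and 219 CPM in control replicates 1 to 3 and at 332, 514 and 593 CPM in butyrate replicates 1 to 3. The lowest butyrate library was above the highest control library, and replicate 1 was the lowest of its group in both. The group means were 162 ± 52.1 and 479 ± 134 CPM (SD, n = 3), from 2813 and 7990 counts. Its log2 fold change was 1.56 (SE 0.26, edgeR adjusted p = 0.00138), a rise of 2.95-fold. Within a replicate number the ratio of butyrate to control was 2.83, 3.41 and 2.7, so much of the spread inside each group was shared between libraries of the same number. With the replicate number as a block the log2 fold change was 1.57, with the SE at 0.09.

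Cdkn1b (gene 12576, chr6:134920401-134925525, plus strand) encodes p27, which in resting T cells holds back CDK2. Its promoter is shown as that of a gene that fell, with its GC box in capitals.
Cdkn1b, chr6:134920151-134920400, plus strand: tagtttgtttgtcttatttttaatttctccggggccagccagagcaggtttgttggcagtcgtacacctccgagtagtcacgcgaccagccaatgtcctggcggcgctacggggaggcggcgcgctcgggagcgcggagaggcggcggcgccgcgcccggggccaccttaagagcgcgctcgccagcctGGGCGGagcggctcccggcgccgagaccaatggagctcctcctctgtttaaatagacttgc
This stretch held 1 copy of GGGCGG, and the whole window held CCAAT at 3 places, a pattern found in 37.4% of all windows.
Cdkn1b stood at 162, 136 and 146 CPM in control and 55.3, 48.5 and 41.4 CPM with butyrate. All 3 butyrate libraries were far below all 3 control libraries, and the libraries of a group lay close together. The log2 fold change was -1.61 (SE 0.12, edgeR adjusted p = 4.26e-05), a level 3.06-fold lower with butyrate. By replicate number, control was 2.94, 2.81 and 3.53 times butyrate. Cdkn1a and Cdkn1b, members of one family, thus changed by nearly the same factor in opposite directions.

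Cdkn1c (gene 12577, chr7:143458339-143461059), the imprinted gene of p57, was near the detection limit. It had 1, 1 and 0 counts in the control libraries and 14, 8 and 7 with butyrate, or 0.18, 0.185 and 0 CPM against 2.59, 1.38 and 1.29 CPM. Every butyrate library had more counts than any control library. The ratio of the summed counts, 29 against 2 and scaled to library totals, was 15.1 (exact 95% interval 3.81 to 130, for counting error alone). The gene did not pass the filter on low counts. Without that filter it was called higher (edgeR adjusted p = 0.00313), as it was by DESeq2 (adjusted p = 0.00983).

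**Figure D2:**
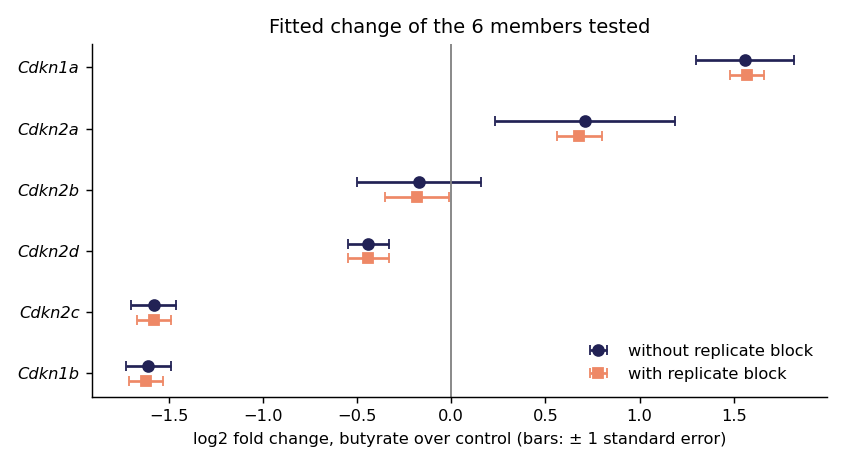
Log2 fold change of butyrate over control for the 6 inhibitor genes tested by edgeR (circles, without the replicate block; squares, with it; bars, 1 standard error to each side; grey line, no change). Cdkn1a lies at 1.56, Cdkn2d at -0.44, and Cdkn2c and Cdkn1b near -1.6, and the block narrows the error of Cdkn2a from 0.48 to 0.12.

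The INK4 genes were mixed, with 2 of 4 lower and 2 not called, beside 22.5% lower of all genes. With the block 1 was higher and 2 were lower, beside 27.4% and 26.4% of all genes. Cdkn2c (gene 12580, chr4:109660876-109666756, minus strand), which encodes p18, fell most. It has 2 RefSeq starts, and the stretch before the first is printed because it holds 3 copies of GGGCGG (capitals), and another lies 36 bases after the start.
Cdkn2c, start 1, chr4:109666757-109667006, minus strand: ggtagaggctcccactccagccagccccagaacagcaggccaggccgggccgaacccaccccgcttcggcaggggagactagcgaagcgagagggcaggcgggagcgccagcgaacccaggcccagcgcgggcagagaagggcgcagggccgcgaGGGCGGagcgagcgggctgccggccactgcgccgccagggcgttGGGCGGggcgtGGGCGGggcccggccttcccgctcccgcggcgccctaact
GGGCGG was in 7 of the 9 windows of the family, those of the risen Cdkn1a and of the fallen Cdkn1b, Cdkn2c and Cdkn2d included, so these letters do not part the genes by direction. In the 4 stretches printed, the E-box CACGTG (7.15% of all windows), the forkhead pattern GTAAACA (3.65%) and TATAAA (13.6%) had no match, which says only that these letters are not in them. Every pattern was searched on both strands, and a base may count toward more than 1 pattern.

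Cdkn2c stood at 88.6, 94 and 84.7 CPM in control and at 29.6, 34.9 and 24.9 CPM with butyrate. The groups were far apart and narrow. The log2 fold change was -1.58 (SE 0.12, edgeR adjusted p = 4.9e-05), a level 2.98-fold lower. Control was 2.99, 2.69 and 3.39 times butyrate by replicate number.

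Cdkn2d (gene 12581, chr9:21288459-21291421), which encodes the p19 of the INK4 family, stood at 215, 203 and 244 CPM in control and at 172, 175 and 143 CPM with butyrate. All 3 butyrate libraries were below all 3 control libraries, but the gap was small. The log2 fold change was -0.44 (SE 0.11, edgeR adjusted p = 0.0103), a level 1.35-fold lower. Replicate 3 had the highest control and the lowest butyrate value, and in the blocked fit without it the log2 fold change was -0.26 (adjusted p = 0.0443).

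Cdkn2a (gene 12578, chr4:89274473-89294619) encodes p16 and, from another first exon and reading frame, the p53 activator p19Arf, and the count joins the transcripts of both. It stood at 15.7, 28.9 and 47.4 CPM in control and at 25.3, 38.3 and 87.8 CPM with butyrate. The groups overlapped widely, with replicate 1 lowest and replicate 3 highest in both. Its log2 fold change of 0.71 was not called (SE 0.48, edgeR adjusted p = 0.251), and it was 0.05 without butyrate replicate 3 and 1.19 without control replicate 3. Within a replicate number butyrate was above control in 3 of 3 pairs, at 1.62, 1.33 and 1.85 times. With the replicate number as a block it was called higher, at 0.68 (SE 0.12, adjusted p = 0.00129). That call held without replicate number 1 (0.68, adjusted p = 0.00528), 2 (0.83, 0.000584) or 3 (0.54, 0.0103). The blocked fit called 2 of 6 inhibitors higher and 3 lower, beside 53.8% of all genes called, 27.4% higher and 26.4% lower.

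Cdkn2b (gene 12579, chr4:89306289-89311032), the p15 gene next to Cdkn2a, is a target of TGF-beta signalling. It stood at 7.38, 13.2 and 13.1 CPM in control and at 5.73, 10.1 and 14 CPM with butyrate, on 31 to 81 counts a library. The groups overlapped, and replicate 1 was the lowest of both. The log2 fold change was -0.17 (SE 0.33, edgeR adjusted p = 0.69), and with the block -0.18 (SE 0.17, adjusted p = 0.389), so no difference was detectable at this depth and spread.

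To compare levels between genes, CPM was divided by the kilobases of each gene's joined exons (RPKM). In control, Cdkn2d had the highest level of the 7, at 140 ± 13.6 RPKM (SD, n = 3), apart from all others. It was followed by Cdkn1a at 45.7 ± 14.7, Cdkn2c at 33.2 ± 1.75, Cdkn1b at 32.6 ± 2.89 and Cdkn2a at 26.2 ± 13.6 RPKM, neighbours whose library ranges overlapped. Cdkn2b was below these at 8.08 ± 2.4 RPKM, and Cdkn1c was last at 0.0598 ± 0.0518 RPKM. With butyrate, Cdkn1a at 135 ± 37.7 and Cdkn2d at 104 ± 11.3 RPKM shared the top, with ranges that overlapped. Next came Cdkn2a at 43.1 ± 28.1 RPKM. Below it, Cdkn2c at 11.1 ± 1.85, Cdkn1b at 10.6 ± 1.53 and Cdkn2b at 7.18 ± 2.99 RPKM could not be parted from one another. Cdkn1c was again last and apart, at 0.86 ± 0.356 RPKM. Divided by the longest transcript, Cdkn1a stood higher, at 78 RPKM in control and 230 RPKM with butyrate, and no longer overlapped Cdkn2d in the butyrate libraries.

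The summed level of the 7 genes overlapped between groups while its makeup differed. The sum was 257, 270 and 330 RPKM in control and 253, 320 and 361 RPKM with butyrate. The share of the INK4 genes in it was 73.3%, 73.2% and 71.6% in control and 57.8%, 51.2% and 51.2% with butyrate. These ranges were far apart, with means of 72.7% ± 0.929 and 53.4% ± 3.81 (SD, n = 3). Cdkn1a alone made up 15.7% ± 2.92 of the sum in control and 42.8% ± 5.09 with butyrate, while Cdkn2d went from 49.3% ± 3.39 to 34.3% ± 9.1. The shares of Cdkn1b and Cdkn2c went from 11.6% to 3.55% and from 11.8% to 3.66%. Cdkn2a made up 8.85% ± 3.52 in control and 13.2% ± 6.59 with butyrate. The INK4 share takes its whole count, of which an unknown part is p19Arf and not p16. The makeup restates the levels given above and was not tested.

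**Figure D3:**
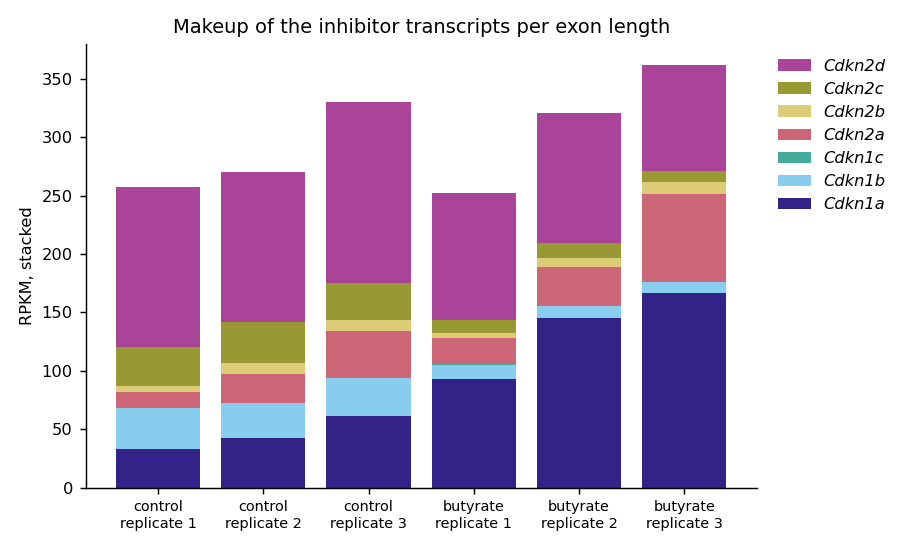
Stacked level per exon length (RPKM) of the 7 inhibitor genes in each of the 6 libraries. The total runs from 253 to 361 RPKM and overlaps between groups, while the Cdkn1a segment grows from between 32.9 and 61.7 RPKM in control to between 93.3 and 167 RPKM with butyrate, and Cdkn1b and Cdkn2c shrink.

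Whether 2 inhibitors responded differently was asked from their log2 ratio within each library, which does not depend on scaling. Of 15 pairs of tested members, 11 had ratios that did not overlap between groups, each with an exact two-sided permutation p of 0.1, the smallest that 3 against 3 libraries can give (0.136 after Benjamini-Hochberg adjustment over the 15). The share over pairs of all genes was not computed. For single genes, an unlike measure, 57.1% did not overlap. The count of 11 is thus a description and says nothing particular about these genes. The log2 ratio of Cdkn1a to Cdkn1b moved most, from 0.09 ± 0.53 to 3.27 ± 0.64 (SD, n = 3). The ratio of Cdkn1a to Cdkn2c moved by 3.15. In 4 pairs the groups overlapped. The ratio of Cdkn1b to Cdkn2c was 0.73 ± 0.18 in control and 0.70 ± 0.21 with butyrate, a difference of -0.03 (exact permutation p = 0.8), which does not show that they respond alike. The other such pairs were Cdkn2b with Cdkn2d (0.23, exact permutation p = 0.8), Cdkn1a with Cdkn2a (0.91, p = 0.2) and Cdkn2a with Cdkn2d (1.09, p = 0.2). These tests take no account of the replicate numbers. Within a number, the shift of Cdkn1a over Cdkn2a was 0.82, 1.37 and 0.55, and that of Cdkn2a over Cdkn2d was 1.00, 0.62 and 1.66, each of 1 sign in 3 of 3 pairs. For Cdkn2b over Cdkn2d it was -0.03, -0.15 and 0.87, and for Cdkn1b over Cdkn2c 0.02, -0.06 and -0.06, with both signs.

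The nearest named genes beside the inhibitors were read as a description, against 45.9% of all genes called. They cannot show whether a change was shared along the chromosome, since several were too low to test. Beside Cdkn1a, 11.9 kb away, the long noncoding RNA gene Trp53cor1 (lincRNA-p21), itself a known p53 target, rose from 3.88 ± 0.565 to 8.94 ± 1.54 CPM (SD, n = 3; log2 fold change 1.21, SE 0.23, edgeR adjusted p = 0.00279). Rab44 on the other side was too low to test, at 0.806 ± 0.303 and 1.59 ± 2.3 CPM. Beside Cdkn1b, the noncoding RNA gene Lockd, 3.57 kb away, fell with it, from 49.6 ± 5.03 to 28.4 ± 0.234 CPM (-0.80, SE 0.10, adjusted p = 0.000417). On its other side, 22.2 kb away, the receptor gene Gpr19 rose by 0.63 (adjusted p = 0.00233), against the direction of Cdkn1b. Faf1, 9.87 kb from Cdkn2c, was at 41.4 ± 2.67 and 41.1 ± 6.67 CPM and was not called. Rnf11, 184 kb off on its other side, was called higher at 0.53 (adjusted p = 0.0455), a call lost in 5 of 18 alternatives, among them without butyrate replicate 2 or 3 (0.33, adjusted p = 0.151, without the latter) or control replicate 1 or 2. Kri1, 0.49 kb from Cdkn2d, was not called, at 83.9 ± 11.7 and 77.8 ± 6.02 CPM, and Ap1m2 on the other side was not tested, at 0.893 ± 0.352 and 2.12 ± 0.527 CPM. Kcnq1 and Slc22a18 beside Cdkn1c had 0 and 2 counts in all 6 libraries, and Dmrta1, 377 kb from Cdkn2b, had 3. Tgif2-ps1, on the Cdkn2a side, was not analysed here. The sources used here do not say whether counting used strand, so reads of antisense transcripts at these loci cannot be told apart.

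Genes with the profile most like an inhibitor that was called were taken by the distance between centred log2 CPM over the 6 libraries, where 0 is the same profile. Nearest to Cdkn1a was the orphan nuclear receptor gene Nr4a2 at a distance of 0.18, beside a median over all genes of 2.17. Then came Scamp1 at 0.24 and Ffar2, which encodes a receptor for short-chain fatty acids, at 0.30. Ffar2 was low, with means of 0.684 and 3.01 CPM, and rose by 2.07 on the log2 scale (2.67 without control replicate 3). Nearest to Cdkn1b were Card6 at 0.15, Efcab11 at 0.19 and the spindle pole gene Aspm at 0.22 (median over all genes 2.05), of which Aspm went from 279 to 95.1 CPM. Near to Cdkn2c were Epc1, of a histone acetyltransferase complex, at 0.27 and Arhgef18 at 0.28 (median 2.01). Nearest to Cdkn2d were Ap5b1 at 0.06, Arl5b at 0.07 and the RNA-binding protein gene Hnrnpa2b1 at 0.11 (median 0.79). The calls of these 3 were lost in some alternatives, all 3 of them without control replicate 3 (adjusted p = 0.0894, 0.123 and 0.066). With Pearson correlation as the measure, 5 of the 12 names were the same. The distance rests on 6 libraries in 2 groups, so a profile is mostly the size of the difference between them.

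Among the kinases and cyclins that the inhibitors act on, the D cyclin genes Ccnd1 and Ccnd2 were higher and the A and B cyclin genes tested were lower. Of 12 tested genes from 13 listed, 4 were higher and 3 lower, with a median log2 fold change of -0.01, beside 23.5% higher and 22.5% lower of all genes. Cdk6, a kinase that INK4 proteins bind, rose from 46.9 ± 5.87 to 82.7 ± 10.1 CPM (SD, n = 3; log2 fold change 0.82, SE 0.12, edgeR adjusted p = 0.000892). The gene of one of its partners, Ccnd2, for cyclin D2, rose from 526 ± 19.2 to 952 ± 180 CPM (0.86, adjusted p = 0.000911). Ccnd1, for cyclin D1, was nearly silent in control, with 2 counts over its 3 libraries against 64 with butyrate, a ratio of 33.2 (exact 95% interval 8.83 to 280 for counting error alone, adjusted p = 0.000208). Ccna2, for the cyclin A that partners CDK2 and CDK1, fell from 646 ± 80.6 to 310 ± 22.2 CPM (-1.06, adjusted p = 0.000148). The mitotic cyclin genes Ccnb1 and Ccnb2 fell by 0.80 and 1.39 on the log2 scale.

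Pocket proteins, which the kinases phosphorylate, and the E2F and DP factors they hold gave 2 higher and 4 lower of 13, with a median of 0.01, beside 23.5% higher and 22.5% lower of all genes. With the block they gave 3 and 5, beside 27.4% and 26.4%. E2f1, an activator of S phase genes, rose from 53.5 ± 3.57 to 83.1 ± 4.77 CPM (SD, n = 3; log2 fold change 0.63, edgeR adjusted p = 0.00062), and its partner gene Tfdp1 rose by 0.48. The repressor genes E2f7 and E2f8 fell by 0.96 and 0.49 on the log2 scale, and Rbl1, which encodes p107, fell by 0.67.

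Of 16 genes of the machinery that removes or modifies CIP/KIP proteins, 1 was higher and 2 were lower, beside 23.5% and 22.5% of all genes, with a median of -0.12. Cul4b, a scaffold of the ligase that degrades p21 and p27, fell from 82.1 ± 3.16 to 45.6 ± 5.64 CPM (SD, n = 3; log2 fold change -0.85, edgeR adjusted p = 0.000323), and the kinase gene Akt2 fell by 0.31. Dtl, the substrate receptor of that ligase for p21, was called higher at 0.28 (adjusted p = 0.0297), but not without control replicate 1 (0.23, 0.0977) or 3 (0.32, 0.0559), without butyrate replicate 2 (0.26, 0.0899) or 3 (0.26, 0.076), or with no filter (0.25, 0.0668). The blocked fit gave 1 higher and 4 lower, beside 27.4% and 26.4% of all genes.

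Transcription factors known to act on Cdkn1 genes moved both ways, with 5 higher and 7 lower of 17 and a median of -0.05, beside 23.5% higher and 22.5% lower of all genes. The blocked counts were 6 and 8, beside 27.4% and 26.4%. Myc, a repressor of Cdkn1a and Cdkn1b among its many targets, rose from 279 ± 14.6 to 860 ± 97.9 CPM (SD, n = 3; log2 fold change 1.63, SE 0.10, edgeR adjusted p = 2.9e-05). Trp73, a relative of p53 that can activate Cdkn1a, went from 0.688 ± 0.605 to 21.6 ± 5.98 CPM (4.90, adjusted p = 0.000106), with 12 control counts in all and a value of 5.50 without control replicate 3. Foxo1, an activator of Cdkn1b, rose by 0.63 (adjusted p = 0.00295), and its relative Foxo4 fell from 62.6 ± 5.49 to 27.7 ± 5.62 CPM (-1.18, adjusted p = 0.000323). Sp1, which binds GC boxes, fell by 0.62, and Smad4, of the TGF-beta pathway, by 0.51 on the log2 scale.

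Regulators of the Ink4-Arf locus, most of them Polycomb genes, gave 7 higher and 2 lower of 23, with a median of 0.12. Of all genes, 23.5% were higher and 22.5% lower. The blocked fit gave 7 and 3, beside 27.4% and 26.4% of all genes. Phc3, a Polycomb subunit, rose from 220 ± 13 to 439 ± 21.4 CPM (SD, n = 3; log2 fold change 0.99, SE 0.08, edgeR adjusted p = 6.58e-05), and the histone demethylase gene Kdm2b rose by 0.60 (adjusted p = 0.00558). Id1, a repressor of p16 expression, was low, at 0.452 ± 0.323 and 3.06 ± 0.41 CPM (log2 fold change 2.66, adjusted p = 0.00153, and 3.38 without control replicate 3). Bmi1, the Polycomb gene best known for silencing this locus, was lower at -0.69 (adjusted p = 0.027), a call lost without control replicate 2 (-0.72, 0.0576) or 3 (-0.55, 0.0987). Dmtf1, an activator of Arf, was lower at -0.29 (adjusted p = 0.0317), a call lost in 9 of 18 alternatives (adjusted p up to 0.107).

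Other p53 targets had a median of 0.48, the highest of the 8 lists, with 8 higher and 4 lower of 19 tested from 20 listed, beside 23.5% and 22.5% of all genes. With the block 9 were higher and 5 lower, beside 27.4% and 26.4%. Among them Aen, a nuclease gene, rose from 79.5 ± 10.1 to 137 ± 21.9 CPM (SD, n = 3; log2 fold change 0.79, edgeR adjusted p = 0.0016), Sesn2 from 27.7 ± 5.26 to 67.8 ± 20.5 CPM (1.29, adjusted p = 0.00199) and the death receptor gene Fas from 7.36 ± 0.449 to 12.7 ± 2.25 CPM (0.79, adjusted p = 0.00811). Against these, Sesn1 fell from 83 ± 6.77 to 40.7 ± 5.25 CPM (-1.03, adjusted p = 0.000195), and the pro-apoptotic gene Bbc3 and the growth arrest gene Btg2 fell by 0.63 and 0.70 on the log2 scale. Many of these genes have other regulators too, and the counts do not show what p53 protein did.

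Other brakes on the cell cycle gave 2 higher and 5 lower of 13 tested from 14 listed, with a median of -0.20, beside 23.5% higher and 22.5% lower of all genes. With the block they gave 2 and 6, beside 27.4% and 26.4%. The stress genes Gadd45g and Gadd45b rose, the first from 37.5 ± 10.9 to 273 ± 86.5 CPM (SD, n = 3; log2 fold change 2.86, SE 0.27, edgeR adjusted p = 0.000112) and the second by 1.43. Cables1, which links kinases to their inhibitory phosphorylation, went from 23.5 ± 5.69 to 5.19 ± 2.31 CPM (-2.18, adjusted p = 0.000489). Cdkn3, a phosphatase gene that shares the Cdkn symbol but is of another protein class, fell from 19.3 ± 1.91 to 9.07 ± 0.815 CPM (-1.09), and Cdk2ap1 fell by 0.53.

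Proliferation markers were lower or not called, apart from Mcm6. Of 16, 1 was higher and 7 were lower, beside 23.5% and 22.5% of all genes, with a median of -0.17. The blocked counts were the same, beside 27.4% and 26.4%. The mitotic genes Cdc20, Plk1 and Ccnf fell, Cdc20 from 196 ± 15.2 to 63.4 ± 3.95 CPM (SD, n = 3; log2 fold change -1.63, SE 0.09, edgeR adjusted p = 2.52e-05), Plk1 by 1.27 and Ccnf by 1.17. Mcm6, of the replication helicase, rose by 0.56 (adjusted p = 0.00129). The summed CPM of the list was 8331 to 8403 in control and 5997 to 7779 with butyrate, and the part of a lower share of dividing cells in the inhibitors' values was not tested.

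**Figure D4:**
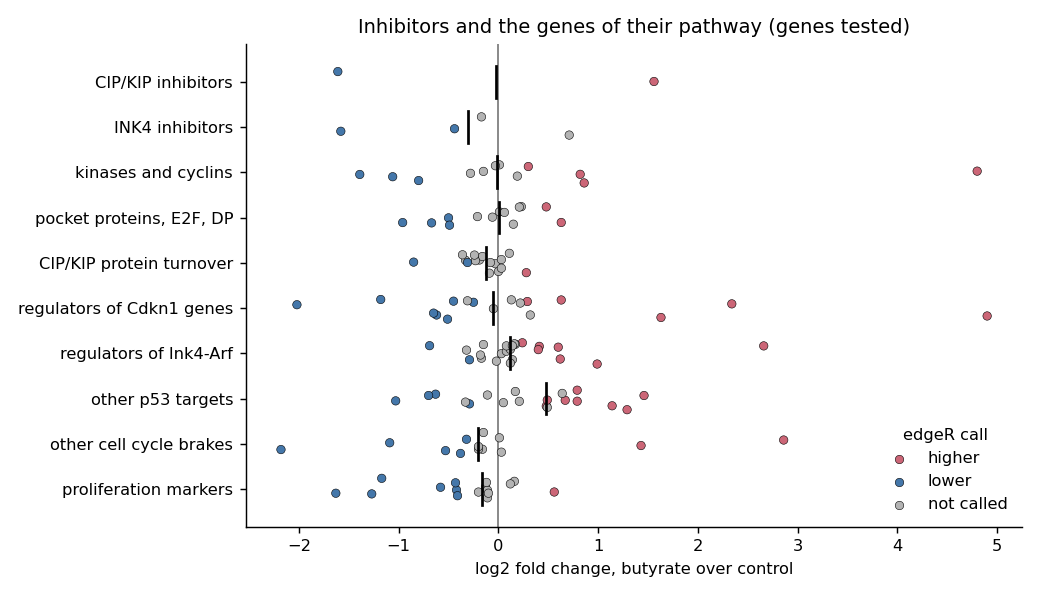
Log2 fold change of butyrate over control for each tested gene of the 2 inhibitor families and the 8 lists of related genes (points, red higher, blue lower and grey not called by edgeR; black bars, list medians). The inhibitors lie on both sides of 0, the p53 target list has a median of 0.48, and called proliferation markers other than Mcm6 lie below 0.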

How the data were processed

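RNA from 3 control and 3 butyrate libraries was compared, as grouped by the labels. The authors deposited 1 table of raw counts per gene, with genes given by number. Per the submitters' processing notes, CASAVA, TopHat, Picard, featureCounts, Subread, edgeR and the build mm10 were used. Versions, strand setting and handling of reads shared by several genes were not given in the sources used here. Of 27179 gene numbers, 25275 were named from RefSeq GRCm38.p6 and 18 from GENCODE, and the 1886 without a name (0.961% to 1.2% of a library's counts) stayed in the tests.

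Counts were scaled by TMM, filtered by filterByExpr and fitted with glmQLFit of edgeR 4.0.16 in R 4.3.3. The 11740 genes kept were tested by glmQLFTest, with Benjamini-Hochberg adjustment over all of them, and called at an adjusted p under 0.05. Depth was 5383380 to 6244350 counts a library, and limits and intervals cover counting error only. Between libraries of a group the chi-square divided by its degrees of freedom was 5.43 to 10.6, above sampling noise. Each library was taken as a replicate, though this spread does not show that the libraries are independent. RPKM used the joined exon length in GENCODE M21. Promoter sequences are RefSeq's.

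Libraries of the same replicate number deviated together (correlations of deviations from the group means of 0.36, 0.20 and 0.35 over 11740 genes, against -0.30 to -0.07 for different numbers), so blocked values, or for a list blocked counts, are given where the block changes a call. This pairing comes from the numbers in the labels and the data, not from a stated mouse or day. Log2 ratios of 2 members used a prior count of 2 and exact permutation. Alternatives were 3 other scalings (RLE, upper quartile, total count), no filter, a filter at 5 CPM in 3 libraries, voom (limma 3.58.1), DESeq2 1.42.0, robust edgeR, the block, and each library left out. The block without each replicate number and the p53 site search were added after the data were seen.

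The members and gene lists were chosen with earlier results of these data known. Named are all members, up to 3 called genes per direction and list with the smallest p, the nearest gene on each side of a member (Gm and Rik names left out), and the 3 nearest profiles per called member. Some genes that this rule takes are not reported here.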

Additional observations from a re-analysis of the deposited data

How the results depend on the processing

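With the replicate block 2 inhibitors were higher in place of 1, as they were with DESeq2, with no filter, and in the blocked fits without replicate 1, 2 or 3. The second was Cdkn2a in the blocked fits and Cdkn1c in the other 2. The number lower was 3 in all 18 alternatives, and without single libraries 1 was higher and 3 lower each time. Cdkn1a (log2 fold change 1.38 to 1.85), Cdkn1b (-1.72 to -1.52), Cdkn2c (-1.71 to -1.46) and Cdkn2d (-0.54 to -0.26) were called in all 18, Cdkn2a (0.05 to 1.19) in the 4 blocked fits and Cdkn2b in 0. Without single libraries Cdkn2b ran from -0.49 to 0.10, the latter without butyrate replicate 1 (adjusted p = 0.796). Over all genes, leaving out a library gave 2369 to 2633 higher and 2118 to 2552 lower, and the block 3220 and 3095. The block changed no call of a member other than Cdkn2a.

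The INK4 share was 53.2% in control and 32.9% with butyrate from summed CPM, and 68% and 44.5% with the longest transcript. It was 72.4% to 73.2% without single control libraries and 51.2% to 54.5% without single butyrate libraries. With a prior count of 0.5 the same number of pairs, 11 of 15, did not overlap. Faf1, which was not called, reversed to 0.05 (blocked fit without replicate 3), 0.02 (stricter filter), 0.00 (total-count scaling) and 0.07 (upper quartile), and ran from -0.15 to 0.07 without single libraries. Kri1, also not called, reversed to 0.07 in the blocked fit without replicate 1 and ran from -0.18 to 0.02 without single libraries. Of 1310 log2 fold changes of 73 named genes over the alternatives, 1237 kept direction and side of the threshold, 59 lost a call (11 genes), 4 gained one and 10 reversed (3 genes). The causes were not tested. Few counts limit what Cdkn1c can show.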

Other observations

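The genes in this section stand on the same lists and were chosen after their values were seen. Trp53, the p53 gene, had means of 175 ± 7.81 and 146 ± 10.9 CPM in control and butyrate libraries (SD, n = 3), a log2 fold change of -0.25 (edgeR adjusted p = 0.0373). That call was lost in 8 of 18 alternatives, among them without control replicate 1, 2 or 3 (adjusted p = 0.093, 0.123 and 0.0551) and without butyrate replicate 2 or 3 (0.118 and 0.0552). Mdm2, the p53 target that degrades p53, was at 130 ± 5.39 and 182 ± 51.3 CPM (0.48, adjusted p = 0.0436). Without butyrate replicate 3 the value was 0.23 (adjusted p = 0.061). Its call was also lost without control replicate 1, 2 or 3 (0.0876, 0.12 and 0.0797), with limma voom (0.0516) and with robust edgeR (0.0529). Pmaip1, a p53 target that encodes the death-promoting protein NOXA, rose from 92.7 ± 23.1 to 204 ± 69.8 CPM (1.14, adjusted p = 0.00821).

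Bcl6, a repressor of several cell cycle inhibitor genes, was at 6.65 ± 0.471 and 1.64 ± 1.31 CPM (edgeR adjusted p = 0.00434). It fell by 2.02 on the log2 scale, and by 2.87 without butyrate replicate 1. Klf4, an activator of Cdkn1a, rose from 0.524 ± 0.359 to 2.75 ± 0.785 CPM (2.34, adjusted p = 0.00468, and 2.93 without control replicate 1). Kdm6b, a demethylase that opens the Ink4a-Arf locus, rose from 12.9 ± 1.9 to 19.8 ± 1.07 CPM (0.62, adjusted p = 0.0077). Cdk2, the main kinase held by p27, was at 132 ± 4.73 and 119 ± 5.48 CPM and was not called (adjusted p = 0.154). Ccnd3, for cyclin D3, was at 567 ± 20.9 and 698 ± 65.7 CPM (0.30, adjusted p = 0.0271). Its call was lost without each control library and without butyrate replicate 3 (adjusted p up to 0.0838). It was also lost with no filter (0.0515) and in the blocked fit without replicate 3 (0.0779). Mki67, the gene of the Ki-67 antigen, fell from 3228 ± 102 to 2412 ± 393 CPM (-0.42, adjusted p = 0.0236), with the call lost in 4 of 18 alternatives, among them without control replicate 1 or 2 (adjusted p = 0.061 and 0.0653).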
